A study of Homo sapiens with 5 samples.

Results

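Transforming growth factor beta (TGF-beta) genes were followed on 5 expression arrays of differentiated H1 cells. H1 is an established line of human embryonic stem cells. The members were taken by gene name: the ligands TGFB1, TGFB2 and TGFB3, the receptors TGFBR1, TGFBR2 and TGFBR3, the latent-complex gene LTBP1, the feedback inhibitor SMAD7 and the matrix gene TGFBI. These 9 genes, of 20041 named on the arrays, had 13 of the 47299 probes. All cultures were grown on matrigel, were taken into mesoderm with CHIR99021, which inhibits the kinase GSK3 and so activates canonical WNT signaling, and were harvested on day 10. The groups were IWP2 (a Porcupine inhibitor that blocks WNT secretion), LY294002 (a phosphoinositide 3-kinase inhibitor), insulin, IWP2 with LY294002, each given from day 2 to day 5, and control cells kept in basal differentiation medium. Each group had 1 array from 1 cell line, so no difference could be set against a spread between replicates, no p-value is given, and neighbours in an order of levels could not be told to differ. The arrays record the state of the cultures after the agents had been withdrawn.

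TGF-beta ligands are secreted inside a latent complex with their own propeptide, which LTBP1 tethers to the extracellular matrix. Once freed, a ligand brings the type II receptor TGFBR2 and the type I receptor TGFBR1 together, helped by the co-receptor TGFBR3 (betaglycan), which matters most for TGFB2 because that ligand binds TGFBR2 weakly. The receptors phosphorylate SMAD2 and SMAD3, which enter the nucleus with SMAD4 and switch on genes such as SMAD7, which in turn shuts the receptor down, and TGFBI, a secreted matrix protein named for its induction by TGF-beta. In the embryonic heart, TGFB2 and TGFBR3 are known from mouse for their parts in the endocardial cushions and in the epicardium.

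The labelled cell type is embryonic stem cell, and the defining markers POU5F1 and NANOG were not detected on any array. SOX2 was detected on the array of both inhibitors alone. Other genes of the 8-gene pluripotency list were detected: LIN28A, SALL4 and DNMT3B on all 5 arrays, and DPPA4 and ZFP42 on all but that of both inhibitors. LIN28A read 9.04 with IWP2, 8.53 with LY294002, 10.07 with insulin, 8.23 with both inhibitors and 9.88 in the control. A probe counts as detected where its detection p-value, a rank among the negative control probes of its array, lay under 0.01. Between 8442 (LY294002) and 9389 (IWP2) named genes were detected per array, and the lowest median intensity was that of the LY294002 array (106.9) and the highest that of the insulin array (118.2). Marker lists showed mixed cultures. Of 10 cardiomyocyte genes, 9 were detected with IWP2, 9 with LY294002, 6 with insulin, 9 with both inhibitors and 8 in the control. Of 10 endoderm and liver genes, 10 were detected with IWP2, 9 with LY294002, 10 with insulin, 8 with both inhibitors and 10 in the control.

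Levels below are background-corrected, quantile-normalized log2 intensities. Of the 9 genes, 5 were detected on all 5 arrays (TGFB2, TGFB3, TGFBR2, TGFBR3 and SMAD7), TGFBI was detected on 4, and TGFB1, TGFBR1 and LTBP1 were detected on none. The widest differences were those of 3 genes: TGFB2 was higher on every inhibitor array than on the insulin and control arrays, TGFBR3 was lower on every inhibitor array, and TGFBI was brightest with insulin and undetected with both inhibitors. TGFB3, TGFBR2 and SMAD7 varied less. Over the 5 arrays, with values below the lowest detected signal of an array set to that signal, the levels of TGFBI spanned 5.98 on the log2 scale, those of TGFB2 3.28 and those of TGFBR3 3.14. Among the 10976 genes detected on at least 1 array, the median span was 0.92, and larger spans than those of TGFBI, TGFB2 and TGFBR3 were found for 0.128%, 1.66% and 1.96% of genes. The spans of TGFB3 (1.47), SMAD7 (1.18) and TGFBR2 (0.93) were exceeded by 20.6%, 32.9% and 49.1% of genes. The members were chosen with earlier results of these data known, so these shares are a description and not a test. In these bulk samples, fewer cells of a type and less RNA per cell cannot be told apart.

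**Figure D1:**
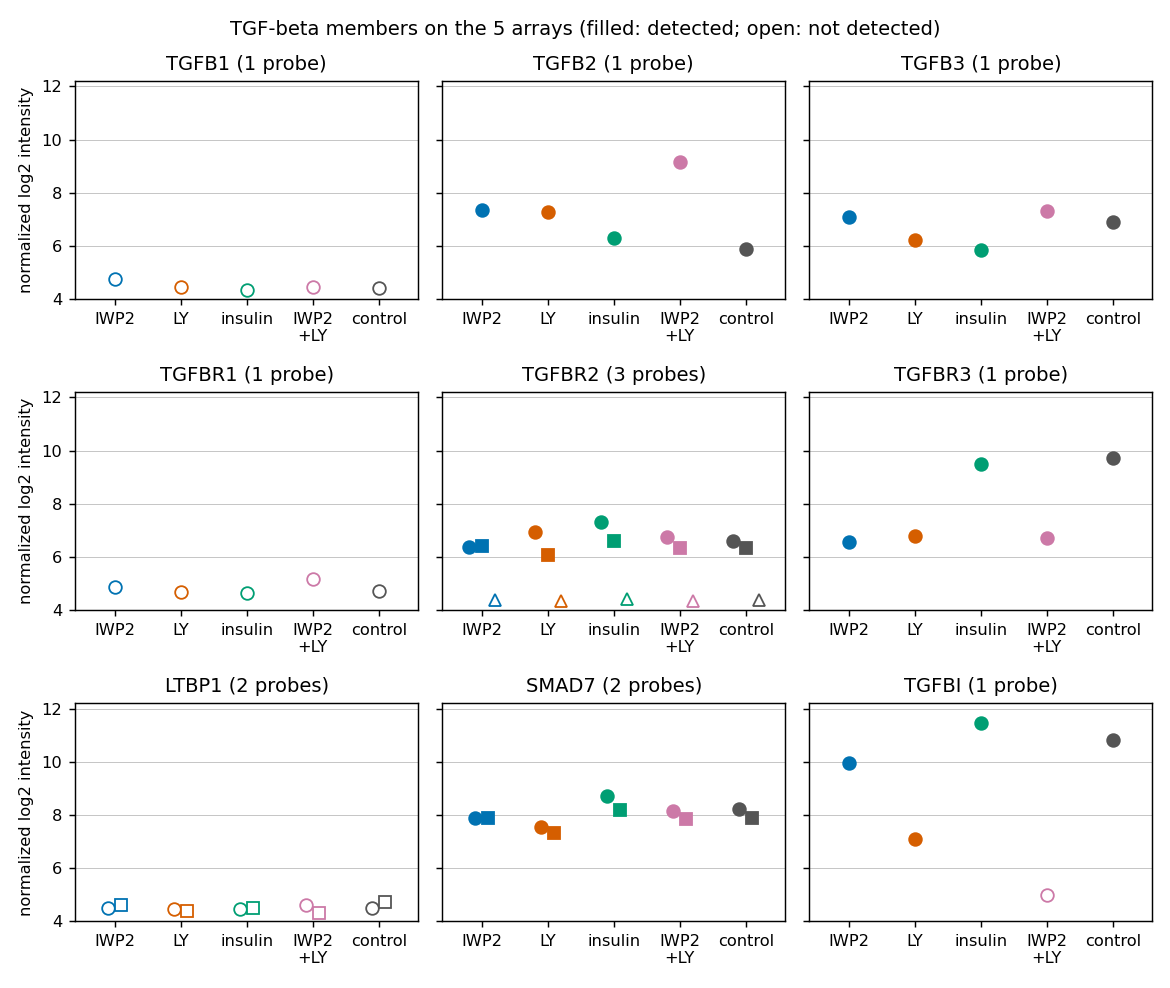
Normalized log2 intensity of each probe of the 9 members (vertical axis) on the IWP2, LY294002 (LY), insulin, IWP2 with LY294002 and control arrays (horizontal axis), 1 array per group and so no error bars. Different symbols in a panel are different probes of the gene, filled where detected and open where not. TGFB2 is highest with both inhibitors (9.16), TGFBR3 is high only with insulin (9.51) and in the control (9.72), and TGFBI is open with both inhibitors.

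The sequence upstream of the 3 genes with the widest spans is shown because TGFB2 was higher on the arrays where TGFBR3 and TGFBI were lower. RefSeq windows (GRCh38.p14) were found for all 9 members, and each run below holds the 250 bases before the annotated start of transcription, 5′ to 3′ on the strand of the gene. The runs cover chr1:218345086-218345335 (plus strand) for TGFB2, chr1:91886152-91886401 (minus strand) for TGFBR3 and chr5:136028738-136028987 (plus strand) for TGFBI. Capitals mark matches, on either strand, to any of 6 motifs. These were the core promoter box TATAAA, the E-box CACGTG, the core TGACG of the cyclic AMP response element, the SMAD box CAGAC, the SMAD palindrome GTCTAGAC and the GC box GGGCGG.
TGFB2: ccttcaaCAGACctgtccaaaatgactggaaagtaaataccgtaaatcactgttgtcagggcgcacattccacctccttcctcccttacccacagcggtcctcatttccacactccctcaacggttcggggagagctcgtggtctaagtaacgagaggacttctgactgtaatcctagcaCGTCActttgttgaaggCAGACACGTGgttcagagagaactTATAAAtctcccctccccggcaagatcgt
TGFBR3: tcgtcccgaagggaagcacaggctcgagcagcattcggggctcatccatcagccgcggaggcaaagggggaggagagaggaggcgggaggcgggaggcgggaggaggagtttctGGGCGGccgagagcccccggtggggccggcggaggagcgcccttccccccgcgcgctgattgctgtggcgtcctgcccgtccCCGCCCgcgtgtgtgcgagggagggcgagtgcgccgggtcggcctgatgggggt
TGFBI: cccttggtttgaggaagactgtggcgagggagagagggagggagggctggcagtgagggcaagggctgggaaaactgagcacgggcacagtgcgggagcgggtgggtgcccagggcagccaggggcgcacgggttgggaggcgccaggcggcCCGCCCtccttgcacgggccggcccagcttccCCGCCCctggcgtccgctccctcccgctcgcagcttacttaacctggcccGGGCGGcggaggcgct
The TGFB2 window held TATAAA from 29 to 24 bases before the start, CACGTG from 49 to 44, TGACG (on the other strand, as CGTCA) from 70 to 66, and CAGAC from 53 to 49 and from 243 to 239, the nearer CAGAC sharing 1 base with CACGTG. The TGFBR3 and TGFBI windows held none of these and instead 2 and 3 GC boxes, of which the TGFB2 window had 0. Of 35116 RefSeq windows of this length, 10.7% held TATAAA, 6.34% CACGTG, 21.2% TGACG, 38.0% CAGAC, 0.182% GTCTAGAC and 42.6% GGGCGG. GTCTAGAC lay in no window of a member. The G and C content was 50.4% for TGFB2, 73.6% for TGFBR3 and 72.8% for TGFBI, and the median over all windows was 58%. A match is a description of letters and does not show that a factor binds there.

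Among the ligands, TGFB2 read 7.35 on the log2 scale with IWP2, 7.28 with LY294002, 6.31 with insulin, 9.16 with both inhibitors and 5.87 in the control. The linear intensities before correction were 260.3 with IWP2, 184.3 with LY294002, 190.5 with insulin, 703.8 with both inhibitors and 152.3 in the control. On the log2 scale the array of both inhibitors stood apart from all others, the single-inhibitor arrays lay close together, and the control was lowest. Before correction the control was lowest as well, but LY294002 (184.3) lay below insulin (190.5) and apart from IWP2 (260.3). TGFB2 was 2.79-fold higher with IWP2 than in the control (log2 difference 1.48), 2.65-fold higher with LY294002 (1.40), 1.36-fold higher with insulin (0.44) and 9.75-fold higher with both inhibitors (3.28). Without background correction these folds were 1.63 with IWP2 and 1.58 with LY294002, both short of 2-fold, and 4.09 with both inhibitors. The order in which all 3 inhibitor arrays read above both other arrays was common, being found for 25.9% of the 7110 genes detected on all 5 arrays.

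TGFB3 read 7.08 with IWP2, 6.22 with LY294002, 5.86 with insulin, 7.33 with both inhibitors and 6.89 in the control. The insulin array was lowest and the array of both inhibitors highest, an order unlike that of TGFB2. The log2 difference from the control was 0.19 with IWP2, -0.67 with LY294002, -1.03 with insulin and 0.44 with both inhibitors. The insulin difference lay just past 2-fold and lay just or well short of it in 4 of the 8 other ways of processing that were planned (-0.45 without background correction to -0.9958 with 75th percentile scaling). TGFB1, the ligand best known from fibrosis and blood cells, read between 4.34 and 4.75 and its probe was not detected on any array (detection p from 0.127 to 0.855). An undetected probe does not show that the transcript is absent, so the balance of ligands cannot be read from these probes.

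Among the receptors, the co-receptor gene TGFBR3 read 6.58 with IWP2, 6.78 with LY294002, 9.51 with insulin, 6.73 with both inhibitors and 9.72 in the control. The arrays fell into a low set of 3 with an inhibitor and a high set of 2 without one, with no overlap. Inhibitor arrays all below the insulin and control arrays were found for 23% of the 7110 genes detected on all 5. TGFBR3 was 8.83-fold lower with IWP2 than in the control (log2 difference -3.14), 7.67-fold lower with LY294002 (-2.94), 1.16-fold lower with insulin (-0.21) and 7.93-fold lower with both inhibitors (-2.99). Without background correction it was 4.69-fold lower with IWP2, 4.38-fold lower with LY294002 and 4.45-fold lower with both inhibitors. Giving both inhibitors placed TGFBR3 no lower than either alone: the array of both differed by 0.16 from IWP2 and by -0.05 from LY294002.

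TGFBR2, the type II receptor gene that binds ligand and starts the signal, had 3 probes, of which 2 were detected on all arrays and 1 on none. The brighter probe read 6.40 with IWP2, 6.95 with LY294002, 7.33 with insulin, 6.75 with both inhibitors and 6.61 in the control. The other detected probe read 6.40, 6.07, 6.61, 6.33 and 6.34 in that order of arrays. The probes gave opposite signs against the control for LY294002 (0.35 and -0.27), for IWP2 (-0.21 and 0.07) and for both inhibitors (0.15 and -0.01), and the same sign for insulin (0.72 and 0.28). No direction is therefore given for TGFBR2 with an inhibitor. The type I receptor gene TGFBR1, which encodes the kinase that phosphorylates SMAD2 and SMAD3, was not detected. Its nearest reading to detection was 5.16 with both inhibitors (detection p 0.0221), against 4.73 in the control (detection p 0.143).

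LTBP1 had 2 probes for different transcripts, neither of them detected, with readings from 4.31 to 4.75. SMAD7 had 2 probes detected on all arrays. The brighter read 7.88 with IWP2, 7.54 with LY294002, 8.72 with insulin, 8.14 with both inhibitors and 8.23 in the control. The second read 7.90 with IWP2, 7.33 with LY294002, 8.20 with insulin, 7.86 with both inhibitors and 7.89 in the control. Both probes put insulin highest and LY294002 lowest. Against the control the probes differed by -0.68 and -0.56 with LY294002, by 0.50 and 0.31 with insulin, by -0.09 and -0.03 with both inhibitors, and by -0.35 and 0.01 with IWP2, where they did not share a sign. No SMAD7 difference from the control reached 2-fold.

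TGFBI, which encodes a matrix protein that binds integrins and collagens, read 9.97 with IWP2, 7.09 with LY294002, 11.44 with insulin and 10.83 in the control. With both inhibitors it read 4.98 and was not detected (detection p 0.039). The linear intensities were 1128 with IWP2, 172.3 with LY294002, 3422 with insulin, 123.8 with both inhibitors and 1899.6 in the control. Insulin was thus the only treatment with a higher level than the control, and each inhibitor array was lower, LY294002 much more so than IWP2. TGFBI differed from the control by -0.86 on the log2 scale with IWP2 (1.82-fold lower), by -3.74 with LY294002 (13.4-fold lower) and by 0.61 with insulin (1.53-fold higher). With both inhibitors it was at least 41.3-fold lower than in the control, taking the lowest detected signal of that array (5.46) as the bound. The size depends on the background step: without that correction TGFBI was 7.92-fold lower with LY294002 and at least 12.7-fold lower with both inhibitors, and with an offset of 50 the bound with both inhibitors was 23.8-fold.

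**Figure D2:**
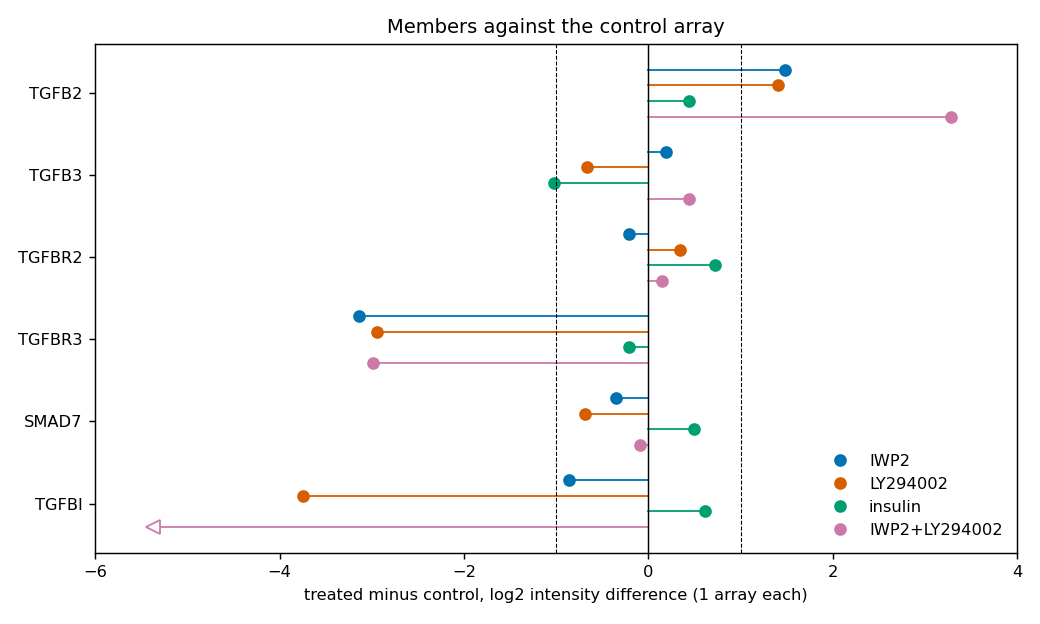
Log2 intensity difference of each detected member (rows) between a treated array and the control array, with dashed lines at 2-fold. Circles are differences between detected values, and the open triangle is a bound. TGFB2 lies to the right for every treatment, up to 3.28 with both inhibitors, while TGFBR3 lies near -3 for the 3 inhibitor arrays and at -0.21 for insulin. All 4 treatments are set against the same control array.

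Read as counts, 2 of the 6 members detected on both arrays were past 2-fold with IWP2 (TGFB2 higher, TGFBR3 lower), where 14.6% of all 8414 genes so detected were (6.94% higher and 7.7% lower). With LY294002, 3 of 6 were past 2-fold (TGFB2 higher, TGFBR3 and TGFBI lower), against 19.2% of 7793 genes (9.02% higher and 10.2% lower). With insulin the count was 1 of 6 (TGFB3 lower), against 3.58% of 8680 genes (1.71% higher and 1.88% lower). With both inhibitors it was 2 of 5 (TGFB2 higher, TGFBR3 lower), against 22.8% of 7858 genes (12% higher and 10.9% lower), and TGFBI passed 2-fold as a bound. Over the members so detected, the log2 differences had a median of -0.28 with IWP2, -0.68 with LY294002, 0.47 with insulin and 0.15 with both inhibitors, and over all genes it was 0.00, 0.02, 0.00 and 0.06. All 4 comparisons use the same control array and are not independent of each other. Because the members were chosen with earlier results of these data known, the counts describe them and do not show that the family is unusual.

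Adding LY294002 to IWP2 compared arrays that were not used in the single-inhibitor comparison of LY294002 with control. TGFB2 was 3.49-fold higher with both inhibitors than with IWP2 alone (log2 difference 1.80), and TGFBI was at least 22.7-fold lower (at least 7.32-fold without background correction and 13.3-fold with an offset of 50). The other 4 detected members differed by 0.16 to 0.36 on their brightest probes. The second detected probes of SMAD7 (-0.04) and TGFBR2 (-0.07) had the opposite sign. In this comparison 1 of 5 members was past 2-fold, against 6.4% of 8214 genes (2.96% higher and 3.45% lower). Adding IWP2 to LY294002, TGFB2 was 3.68-fold higher with both inhibitors than with LY294002 alone (1.88), TGFB3 was 2.16-fold higher (1.11) and TGFBI was at least 3.09-fold lower (at least 1.61-fold, short of 2-fold, without background correction, and 2.18-fold with an offset of 50), making 2 of 5 members past 2-fold against 10.3% of 7691 genes (5.92% higher and 4.37% lower). Between the single inhibitors, TGFBI was 7.36-fold lower with LY294002 than with IWP2 (log2 difference -2.88, and 4.55-fold lower without background correction), the 1 member of 6 past 2-fold, against 9.71% of 7980 genes (4.12% higher and 5.59% lower). TGFB2 (-0.08) and TGFBR3 (0.20) read close together on these arrays.

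For TGFB2 the single differences from the control added to 2.89, and both inhibitors together gave 3.28. For TGFBR3 the single differences added to -6.08 and both together gave -2.99, a difference of differences of 3.09. From the control level of 9.72, the summed difference would end below the lowest detected signal with both inhibitors (5.46). A fall of that size could not have been measured, so part of the 3.09 is set by the scale. The difference of differences was 0.40 for TGFB2, 0.92 for TGFB3, 0.94 for SMAD7 and 0.01 for TGFBR2. The second detected probe gave 0.52 for SMAD7 and 0.19 for TGFBR2. Of the 7271 genes detected on the 4 arrays that this quantity needs, 18% had a value of 1 or more in size. For TGFBI it is not given because the array of both inhibitors holds only a bound.

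Some cell type marker lists shared parts of their order over the arrays with TGFBI, TGFBR3 and TGFB2. The median log2 level of 8 fibroblast markers was 9.58 with IWP2, 9.07 with LY294002, 10.94 with insulin, 6.02 with both inhibitors and 10.95 in the control. Of these 8 markers, 4 (DCN, LUM, PDGFRB and THY1) were not detected with both inhibitors. The median of 10 endoderm and liver markers was 10.32 with IWP2, 7.92 with LY294002, 12.94 with insulin, 6.31 with both inhibitors and 12.63 in the control. This was the order of TGFBI (insulin, control, IWP2, LY294002, both). Medians of the 6 detected pluripotency genes were 7.66 with IWP2, 6.92 with LY294002, 7.81 with insulin, 6.34 with both and 8.25 in the control. The fibroblast and pluripotency medians ran in the same order but for insulin and control, so the order is not particular to endoderm and liver.

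The median of 7 epicardium and mesothelium markers was 4.79 with IWP2, 4.85 with LY294002, 6.96 with insulin, 4.77 with both inhibitors and 6.60 in the control, a high pair and a low trio as for TGFBR3. The fibroblast, endoderm and liver, and pluripotency medians also lay higher with insulin and in the control than on each inhibitor array. Within the epicardium and mesothelium list, UPK3B went the other way and was detected only with LY294002 (5.86). Of these markers 3 were detected with IWP2, 3 with LY294002, 5 with insulin, 0 with both inhibitors and 6 in the control. The low medians lay under the lowest detected signals of their arrays (5.27 with IWP2, 5.49 with LY294002, 5.46 with both). TGFBR3 itself was detected on all 5 arrays. The median of the 9 cardiomyocyte markers detected on any array was 12.01 with IWP2, 12.08 with LY294002, 8.11 with insulin, 12.22 with both inhibitors and 8.97 in the control. It was high on the 3 inhibitor arrays, as was TGFB2. Insulin lay below the control for this median but above it for TGFB2. The endothelium list had 2 of 7 genes detected with IWP2, 2 with LY294002, 5 with insulin, 2 with both inhibitors and 5 in the control. The 5 endothelium genes detected on any array also gave a high pair and a low trio of medians. These were 4.89 with IWP2, 4.45 with LY294002, 6.26 with insulin, 4.86 with both inhibitors and 5.99 in the control. This low trio again lay under the lowest detected signals. The smooth muscle list had 3 of 6 genes detected on each array except insulin, which had 4. The part of these cell types in the member levels was not tested.

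**Figure D3:**
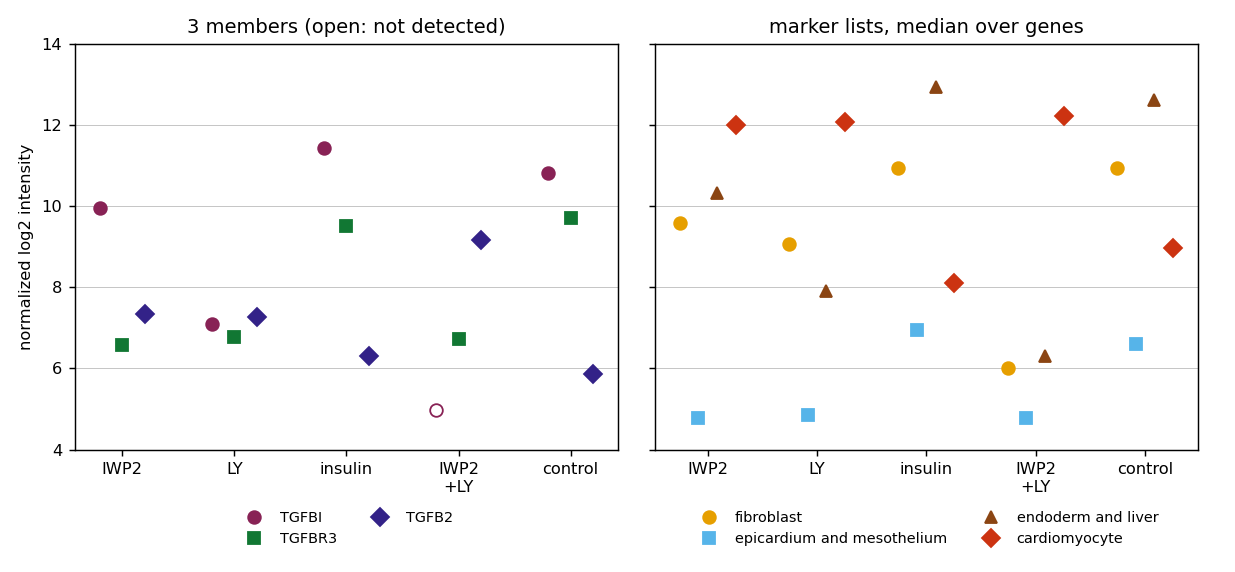
Left, normalized log2 intensity of TGFBI, TGFBR3 and TGFB2 on each of the 5 arrays, with an open symbol where not detected. Right, the median log2 intensity of the fibroblast, epicardium and mesothelium, endoderm and liver, and cardiomyocyte marker lists on the same arrays, 1 array per group and so no error bars. TGFBI and the endoderm and liver median are both highest with insulin (11.44 and 12.94), as is the epicardium and mesothelium median (6.96). TGFB2 reads highest with both inhibitors (9.16), whereas the cardiomyocyte median is similar on the inhibitor arrays (12.22 with both, 12.08 with LY294002, 12.01 with IWP2).

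The genes whose levels lay nearest to each member over the 5 arrays were taken by root mean square distance of log2 values centred on each gene's own mean, among 10970 genes detected on at least 1 array. Nearest to TGFBI were TTR (distance 0.31), DLK1 (0.33) and AFP (0.42), genes of secreted proteins of fetal liver and yolk sac and of an imprinted growth regulator. Nearest to TGFBR3 were EGFL6 (0.08), a secreted matrix protein, S100A16 (0.12), a calcium-binding protein, and SLC2A5 (0.19), the fructose transporter. Nearest to TGFB2 were GPR19 (0.27), an orphan receptor, SMOC1 (0.29), a secreted matrix protein, and BICC1 (0.30), an RNA-binding protein. TGFB3 lay nearest to PSMD5 (0.07), ZNF521 (0.07) and SLC25A37 (0.08), and SMAD7 to TRIM32 (0.05), PROSER1 (0.07) and NAAA (0.07). These distances use the readings of undetected probes as they stand: EGFL6 and SLC2A5 were detected on 2 of the 5 arrays, and TGFBI itself on 4. With undetected readings set to the lowest detected signal of their array, an alternative chosen after seeing the data, the nearest genes were AFP (0.29), FGB (0.40) and FGG (0.42) for TGFBI and FMO1 (0.06), ERICH4 (0.08) and AVP (0.12) for TGFBR3. Of the 3 names, 1 was shared between the settings for TGFB2 (GPR19), TGFB3 (ZNF521), SMAD7 (TRIM32) and TGFBI (AFP), and 0 for TGFBR3. With 5 arrays and 10970 genes, the names are a description that depends on how dim readings are treated.

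The rest of the pathway was read from lists of genes by role. Of 9 other ligands of the activin and nodal branch, GDF11, a ligand that signals through activin receptors, was the only one detected on all arrays. GDF11 read 8.63 with IWP2, 7.58 with LY294002, 7.53 with insulin, 8.75 with both inhibitors and 7.64 in the control, high where IWP2 was given. It was past 2-fold against the control with both inhibitors (1.11) and just short of it with IWP2 (0.99). INHBA, INHBB, NODAL, MSTN and LEFTY1 were detected on no array. Of 9 other receptors, 4 were detected on each pair of arrays compared with the control. ACVR2A, a type II activin receptor gene, was higher by 1.52 with IWP2, 1.06 with LY294002, 0.46 with insulin and 1.69 with both inhibitors. BMPR2, the type II receptor gene of bone morphogenetic proteins, differed by 0.88 with IWP2, 1.28 with LY294002, -0.02 with insulin and 2.12 with both. Past 2-fold were 1 of 4 with IWP2, 2 with LY294002, 0 with insulin and 2 with both inhibitors, all higher, beside 6.94%, 9.02%, 1.71% and 12% of all genes past 2-fold higher in the same comparisons. ACVR1B and ACVR1, type I receptor genes, differed from the control by at most 0.60 in size.

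Among 16 genes of the latent complex and its activation, 8 were detected on both arrays for IWP2, 7 for LY294002, 7 for insulin and 8 for both inhibitors. With IWP2, 2 were at least 2-fold higher (THBS1 by 1.60 and ITGAV by 1.45) and 2 lower (LRRC32 by -1.15 and ITGB5 by -1.04). With both inhibitors 3 were higher (ITGAV by 1.84, THBS1 by 1.70 and ITGB1 by 1.08, the last named after its value was seen) and 2 lower (ITGB5 by -1.56 and LRRC32 by -1.33). With LY294002, 0 were higher and 2 lower (ITGB5 by -1.63 and LRRC32 by -1.48), and with insulin 0 passed 2-fold. Of all genes, 14.6% were past 2-fold either way with IWP2, 19.2% with LY294002, 3.58% with insulin and 22.8% with both inhibitors. THBS1 encodes thrombospondin, which can free the latent ligand, ITGAV and ITGB5 encode integrin subunits that bind latent complexes, and LRRC32 encodes a surface protein that holds latent TGF-beta. The genes of the list thus lay on both sides of the control, and the list medians were 0.14 with IWP2, -0.19 with LY294002, -0.12 with insulin and 0.02 with both inhibitors.

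The SMAD genes that carry the signal lay close to the control. SMAD3 differed by -0.02 with IWP2, -0.12 with LY294002, 0.70 with insulin and -0.25 with both inhibitors, and SMAD4 by 0.09, -0.14, 0.30 and -0.44 in that order. SMAD2 was detected only with IWP2 (5.53) and with both inhibitors (5.88). No detected SMAD of this list passed 2-fold in a comparison with the control.

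Among 16 other inhibitors of the pathway, DCN and BGN, which encode matrix proteoglycans that bind TGF-beta, were lower with each inhibitor. DCN differed from the control by -4.04 with IWP2 and by -2.53 with LY294002, and was at least 30.7-fold lower with both inhibitors. BGN differed by -2.26 with IWP2 and -1.71 with LY294002, and was at least 8.33-fold lower with both inhibitors. DCN is also on the fibroblast list. FKBP1A, which encodes a protein that holds the type I receptor inactive, differed by 0.95 with IWP2, 1.15 with LY294002, 1.01 with insulin and, by its levels of 9.44 with both inhibitors and 9.29 in the control, little there. SMAD6, the inhibitory SMAD of the bone morphogenetic protein branch, differed by 0.94 with IWP2 and 0.77 with insulin. Counted together, 0 of 11 were past 2-fold higher and 2 lower with IWP2, 1 of 11 higher and 2 lower with LY294002, 1 of 11 higher and 0 lower with insulin, and 1 of 8 higher (PPM1A, 1.04) and 0 lower with both inhibitors, beside the bounds. The shares of all genes past 2-fold in these comparisons, 14.6%, 19.2%, 3.58% and 22.8%, stand beside these counts, and nothing is read from the list as a whole.

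The last list held 28 other measured genes known to respond to TGF-beta in various cells. Lower levels outnumbered higher ones with each inhibitor: of 20 detected on both arrays, 1 was at least 2-fold higher and 7 lower with IWP2 (list median -0.62), and 0 were higher and 6 lower with LY294002 (-0.53). Of 18 with both inhibitors, 1 was higher and 9 lower (-0.89), and 4 more were lower as bounds. Of 23 with insulin, 0 passed 2-fold (0.19). The share of all genes at least 2-fold lower was 7.7% with IWP2, 10.2% with LY294002 and 10.9% with both inhibitors. The collagen gene COL1A2 differed by -1.92 with IWP2, -2.21 with LY294002 and -4.49 with both inhibitors, and COL3A1 by -1.97, -2.03 and -4.36. SPARC, a matrix glycoprotein gene, differed by -1.64 with LY294002, 0.69 with insulin and -2.58 with both inhibitors. These matrix genes are fibroblast genes as well, and 3 of them (COL1A1, COL1A2 and COL3A1) stand on the fibroblast list.

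Outside the matrix, LMCD1, a cofactor of muscle transcription, differed by -2.31 with IWP2, and SNAI2, a transcription factor of mesenchymal cells, by -1.93. SNAI2 was at least 5.78-fold lower with both inhibitors. LOX, which crosslinks collagen, was at least 5.57-fold lower with LY294002 and at least 5.68-fold lower with both inhibitors. BHLHE40 was at least 3.75-fold lower with IWP2, 3.22-fold lower with LY294002 and 3.28-fold lower with both inhibitors, and POSTN, a matrix protein related to TGFBI, at least 4.32-fold lower with IWP2 and 3.78-fold lower with both. The genes at least 2-fold higher were contractile and were named after their values were seen. CNN1 read 6.92 with IWP2 and 5.72 in the control, and TPM1 read 14.29 with both inhibitors and 13.22 in the control. Contractile genes of the list lay on both sides of the control. With both inhibitors CNN1 differed by 0.55, ACTA2 by 0.09, TAGLN by -0.71 and TPM2 by -1.07. With insulin the largest difference was that of ACTA2, smooth muscle actin (-0.90).

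**Figure D4:**
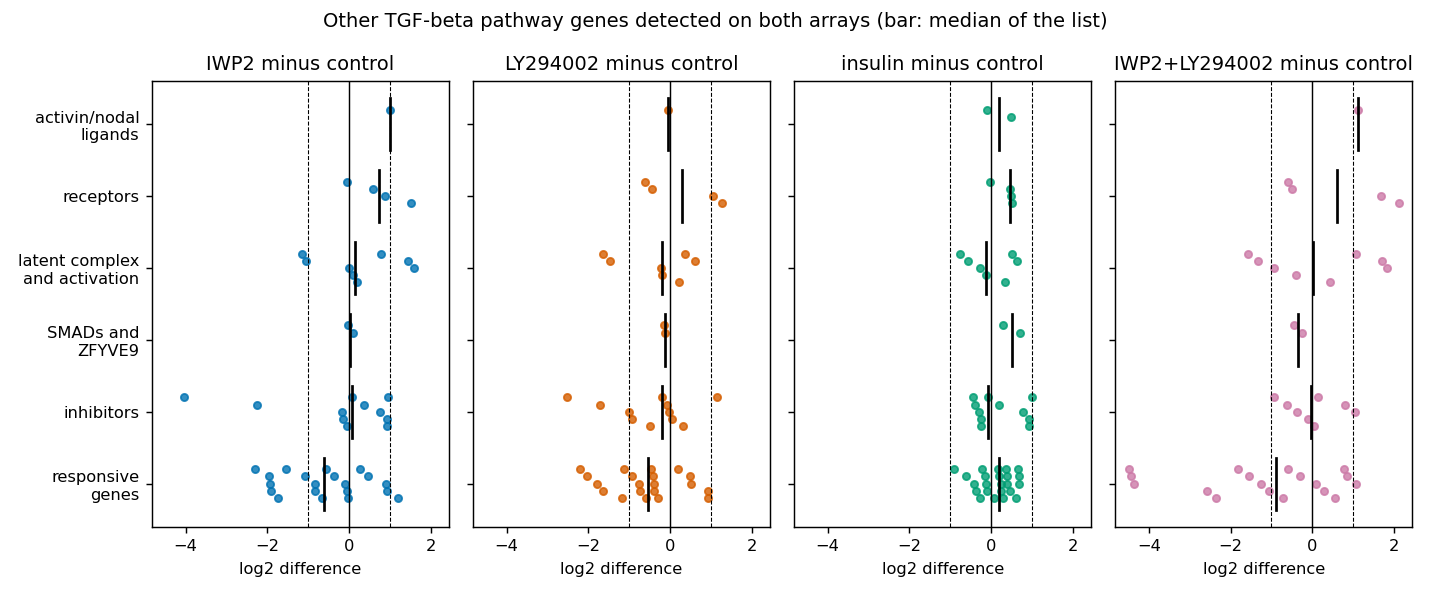
Log2 intensity difference from the control array (horizontal axis) of the other TGF-beta pathway genes detected on both arrays, by role (rows) and treatment (panels), with 1 array per group. Points are genes, the black bar is the list median and dashed lines mark 2-fold. The responsive genes have medians of -0.62 with IWP2, -0.53 with LY294002, 0.19 with insulin and -0.89 with both inhibitors.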

How the data were processed

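Total RNA of 5 cultures, isolated with a Qiagen RNeasy kit, was labelled with biotin and run on an Illumina BeadChip. Both steps are stated in the labels' protocols. The deposited scanner table gives an intensity per probe, not normalized, and a detection p-value beside it, per the file headers. The authors' deposited value table holds log2 values. The steps behind it are not stated in these sources, and from the values it was taken as quantile-normalized. Its scale and direction follow the intensities (lowest Spearman correlation 0.999997), and its centring stays unknown.

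Intensities were background-corrected with normexp from the detection p-values, quantile-normalized across all 5, and log2-transformed after an offset of 16 was added (neqc, limma 3.58.1, R 4.3.3). Later steps used Python 3.11.15, pandas 2.3.3 and numpy 2.4.6. Probes were named from the platform annotation, with symbols updated by gene ID: 30106 probes had 1 symbol, 8 several and 17185 none. For a gene with several probes, the one with the highest mean was used. Genes counted as past 2-fold where detected (p under 0.01) on both arrays with a log2 difference of at least 1 in size. Where 1 of 2 arrays detected a gene, the fold is a bound: the dim side is set to that array's lowest detected signal, or to the gene's own value if higher. Calls were tested on simulated arrays in which only genes bright in the control were changed. Genes as dim there as TGFB2, TGFB3 and TGFBR2 were therefore not tested for a change. The simulated noise was a set value, so the spread between single cultures was not covered. The number of arrays limits the precision.

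The members and lists were chosen with earlier results of these data known. All 9 members were described, with up to 4 genes of each pathway list per comparison by size of difference, bounds of 2-fold or more, and the 3 nearest genes of each member that spanned 1 or more. Promoter sequences are RefSeq's (GRCh38.p14). A gene of the lists is not reported here.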

Additional observations from a re-analysis of the deposited data

Results flagged for a closer look

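For some members the log2 difference had opposite signs when the same agent was added without and with the other inhibitor. Adding LY294002 with IWP2 present gave small values (0.16 to 0.26), which 1 array per group cannot tell from no change. With 1 array per group this difference between backgrounds was not tested. Adding LY294002 gave a TGFB3 log2 difference of -0.67 without IWP2 (LY294002 minus control) and 0.25 with it (IWP2 with LY294002 minus IWP2). For TGFBR3 the same addition gave -2.94 without IWP2 and 0.16 with it, where the IWP2 array already read 6.58. For SMAD7 it gave -0.68 without IWP2 and 0.26 with it, and adding IWP2 gave -0.35 without LY294002 and 0.59 with it. The second SMAD7 probe gave -0.56 and -0.04 for LY294002 and 0.01 and 0.53 for IWP2, and so did not change sign.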

How the results depend on the processing

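Background correction, between-array scaling, offset, detection threshold, choice of probe and source of values were each changed in turn, and an alternative chosen after seeing the data left the LY294002 array, the dimmest, out of the normalization. Of 360 recomputed member differences, 112 could not move, because the detection threshold changes no value and 4 of the 6 detected members have 1 probe. Of the other 248, 239 stayed on their side of 2-fold, 9 were no longer past it and none of those past it changed sign. Most of the 248 were short of 2-fold to begin with, so the 239 say little about the calls. Without background correction, TGFB2 with IWP2 and with LY294002 and TGFB3 with insulin were no longer past 2-fold. The same held for TGFB3 and TGFBI between both inhibitors and LY294002. Sizes moved as well: without background correction TGFB2 with both inhibitors was 4.09-fold above control (9.75 here) and the TGFBI bound was 12.7-fold (41.3 here). Bounds of genes other than TGFBI were not recomputed. Members past 2-fold with IWP2 against control numbered 1 without background correction, where TGFB2 differed by 0.71 (and by 0.66 with LY294002). With insulin the count was 0 without background correction, with 75th percentile scaling, with an offset of 50 and with the authors' value table, as TGFB3 lay at the threshold. The count for IWP2 with LY294002 against LY294002 was 1 without background correction and with an offset of 50, and that against IWP2 was 2 at a detection p under 0.05 and with no detection filter, since TGFBI then counts as detected. Over all genes, 75th percentile scaling gave 513 higher and 992 lower with LY294002 against control (703 and 793 here), 218 and 116 with insulin (148 and 163), and 815 and 179 for both inhibitors against LY294002 (455 and 336), and 173 and 681 for LY294002 against IWP2 (329 and 446), with median shifts over all genes of 0.18 and -0.12 in these last comparisons and 0.12 for both inhibitors against control. Without background correction, 503 of 8410 genes passed 2-fold with IWP2 (1232 here), 592 with LY294002 (1496), 59 with insulin (311), 818 with both inhibitors (1794), 140 for both inhibitors against IWP2 (526), 180 against LY294002 (791) and 193 for LY294002 against IWP2 (775). With an offset of 50 the last 3 counts were 279, 413 and 415, and insulin had 129. With no detection filter (20041 genes), 2355 passed with LY294002 and 2817 with both inhibitors against control, 847 and 1393 for both inhibitors against IWP2 and LY294002, and 1256 for LY294002 against IWP2. No paired analysis was possible because each group has 1 array. Probes near background limit what can be read of TGFB1, TGFBR1 and LTBP1.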

Other observations

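LY294002 and IWP2 given alone left different levels of some pathway genes. Detected on both arrays were 1 other ligand, 4 other receptors, 7 latent complex genes, 2 SMADs, 12 other inhibitors and 19 responsive genes. Of all 7980 genes so detected, 9.71% passed 2-fold between these arrays (4.12% brighter with LY294002 and 5.59% dimmer). Without background correction the number past 2-fold fell from 775 to 193. The pathway genes were not recomputed that way, and several differences below lie near the threshold of 1 in size. On the log2 scale, DCN (1.51) and LMCD1 (1.73) were higher with LY294002 than with IWP2, and THBS1 (-1.38), GDF11 (-1.05), ACVR1B (-1.05), TAGLN (-1.04), FST (-1.02), the activin-binding follistatin, and SMAD6 (-1.02) were lower. The endoderm and liver list was lower with LY294002 than with IWP2 in 9 of 9 genes detected on both arrays (median -2.18), and the fibroblast list was at least 2-fold higher in 1 of 8 genes and lower in 1.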
